A study of Mus musculus with 12 samples.

Results

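Bone marrow-derived macrophages are grown from marrow of the femur and tibia in M-CSF (a growth factor that drives macrophage differentiation), and here RNA was sequenced from 12 such cultures in 4 labelled groups of 3. This comparison takes the 3 libraries labelled Nlrc3 KO without LPS (culture medium RPMI 1640 alone) against the 3 labelled WT with LPS, 6 of the 12 libraries. The labelled KO was LysM-Cre+ and the labelled WT was Cre-negative, and both carried 2 floxed Nlrc3 alleles (Nlrc3 fl/fl). LPS, where given, was given for 12 hours. The sources used here do not give the LPS dose, the age and sex of the mice, or whether a culture came from 1 mouse or a pool. P-values therefore measure the spread between these libraries, which may be in part technical. By the sex-linked genes Xist and Ddx3y, given below, the libraries labelled WT, LPS came from mice of both sexes. The spread in that group thus includes differences between animals. The 2 groups differ in both labels at once, so genotype and treatment cannot be told apart in them. The pair was chosen by measured values of these libraries, namely high levels of LPS-response genes in both groups; those levels are therefore given as a description.

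LPS, a cell-wall lipid of Gram-negative bacteria, is sensed on macrophages by TLR4 with its partners CD14 and MD-2 (Ly96). The adaptors Myd88 and Ticam1 carry the signal to NF-κB, which turns on cytokine genes such as Tnf, Il6 and Il1b, and to IRF3, which turns on Ifnb1 and through it the interferon-stimulated genes. Macrophages so activated also take up more glucose and raise glycolysis, in part through HIF-1. NLRC3 is an intracellular NOD-like receptor known as a brake on inflammatory signalling. LysM-Cre is a Cre recombinase gene inserted into Lyz2, the lysozyme gene of macrophages and other myeloid cells, so it deletes floxed sequence mainly in those cells, and the inserted copy of Lyz2 is disrupted. The study's title names glycolytic genes of LPS-treated macrophages as its question.

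Several libraries go against their labels or stand apart. The libraries labelled KO, medium carry high levels of LPS-response genes, and those labelled KO, LPS do not; for Nos2 the ranges are 1148 to 2717 and 0.689 to 5.43 CPM (counts per 1e+06 counts of the library's total). Replicate 2 labelled WT, LPS stands apart from the other 5 libraries of the pair in sex-linked genes, ribosomal protein genes, and cytokine genes such as Il6 and Tnf. For most list medians, the value without it or the range over leaving out each of the 6 libraries in turn is given beside the value. Whether labels of some libraries were exchanged was not tested, and groups are kept as labelled.

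No gene passed the test for a difference between the libraries labelled KO, medium and those labelled WT, LPS. Of 54446 genes in the count table, 27384 had no read in any library and 13773 passed the filter on low counts. Of these 13773, edgeR's quasi-likelihood test called 0 (0%) at an adjusted p under 0.05, the smallest adjusted p was 0.95, and DESeq2 also called 0 (0%). An unadjusted p under 0.05 was reached by 392 genes in DESeq2 and by 270 in edgeR, 1.96% of those tested; of the latter, 58 were higher and 212 lower in the labelled KO, medium libraries. The fitted log2 fold was within 1 of 0 (less than a 2-fold difference) for 12661 genes, 91.9%. Its standard error had a median of 0.44, and the whole 95% confidence interval lay within 2-fold for 4282 genes, 31.1%. For the other genes a 2-fold difference in 1 direction or both was not excluded by the interval.

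The 3 sequences below belong to Lyz1 and Ifi208, which had the largest fitted rise and fall among genes of at least 5 CPM in the higher group whose libraries did not overlap, and to Lyz2. They are the 130 bases just before the RefSeq transcript start (GRCm38.p6), 5′ to 3′, of Lyz2 (chr10:117282273-117282402, minus strand), its neighbour Lyz1 (chr10:117292869-117292998, minus strand) and Ifi208 (chr1:173673535-173673664, plus strand). Lyz2 is shown because its promoter drives the Cre, and Lyz1 because it is the near-identical copy beside it. In the Lyz2 and Lyz1 stretches capitals mark the bases that differ between them.
Lyz2: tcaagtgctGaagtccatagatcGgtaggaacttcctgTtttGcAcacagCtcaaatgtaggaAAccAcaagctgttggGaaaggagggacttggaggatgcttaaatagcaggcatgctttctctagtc
Lyz1: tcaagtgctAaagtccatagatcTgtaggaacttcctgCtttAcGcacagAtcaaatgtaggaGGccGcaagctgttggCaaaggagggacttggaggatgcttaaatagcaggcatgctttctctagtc
Ifi208: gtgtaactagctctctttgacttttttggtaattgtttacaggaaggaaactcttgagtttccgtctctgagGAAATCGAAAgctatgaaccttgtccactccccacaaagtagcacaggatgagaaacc
The Lyz2 and Lyz1 stretches are the same at 120 of 130 bases, 92.3%, without a gap, and at all 50 bases next to the start. In Ifi208 capitals mark a match on the plus strand to GAAA, any 2 bases and GAAA again, the core of the interferon-stimulated response element, from 58 to 49 bases before the start. The same motif, searched on both strands in the same 130 bases, is present in 444 of 32851 promoters, 1.35%, and in 8 of the 12 listed genes of the Ifi200 (PYHIN) family. A match is a description of the letters.

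Nlrc3 itself, the targeted gene (ENSMUSG00000049871, chr16:3945007-3976632, minus strand, mm10), was low in both groups. It stood at 0.796, 4.39 and 1.40 CPM in replicates 1, 2 and 3 labelled WT, LPS and at 0.996, 0.850 and 0.876 CPM in those labelled KO, medium. The 2 groups overlap, and the highest of the 6 values is replicate 2 labelled WT, LPS. The fitted log2 fold was -0.94 ± 0.55 (SE; 95% interval -2.14 to 0.25; edgeR adjusted p = 0.95), and without that replicate it was -0.15. Nlrc3 was higher in the other 6 libraries, at 9.89, 13.6 and 10.4 CPM labelled WT, medium and 15.6, 8.29 and 6.04 CPM labelled KO, LPS. The libraries labelled KO, LPS are thus not low in this gene, and those labelled KO, medium are not separated from those labelled WT, LPS by it. These are counts over the whole gene, and the files do not say which exons are floxed, so reads outside the deleted part are not informative on the genotype.

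Lyz2, which hosts the Cre (ENSMUSG00000069516, chr10:117277331-117282321, minus strand), stood at 13942, 9125 and 7077 CPM labelled WT, LPS and 7772, 5505 and 4307 CPM labelled KO, medium. In these CPM, which are not TMM-scaled, the ranges overlap by 1 library in each group. On TMM-scaled CPM the groups overlap as well. The log2 fold was -0.56 ± 0.42 (edgeR adjusted p = 0.95), and in the pair labelled KO, LPS against WT, medium, which shares no library with it, -0.53 ± 0.42 (edgeR adjusted p = 0.816).

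Lyz1, the second mouse lysozyme gene (ENSMUSG00000069515, chr10:117287797-117292868, minus strand), had the largest fitted rise among genes of at least 5 CPM whose libraries did not overlap. It stood at 26.7, 5.96 and 8.94 CPM labelled WT, LPS and at 149, 87.6 and 88.9 CPM labelled KO, medium. All 3 labelled KO, medium libraries lie above all 3 labelled WT, LPS, with a gap from 26.7 to 87.6 CPM. The log2 fold was 3.12 ± 1.03 (95% interval 0.89 to 5.36), with an edgeR unadjusted p of 0.0102 and an adjusted p of 0.95. With no filter on low counts, where the spread is estimated over more genes, the adjusted p was 0.0455, and it was 0.567 or above in each of the other 11 alternative fits. Lyz1 reads as a percentage of Lyz2 reads were 0.192%, 0.0654% and 0.126% labelled WT, LPS and 1.92%, 1.59% and 2.06% labelled KO, medium. In the other groups the percentage was 0.0314%, 0.0917% and 0.0557% labelled WT, medium and 1.34%, 0.0284% and 0.370% labelled KO, LPS. So the ratio was above 1% in 4 libraries, all of them labelled KO, and below 0.4% in the other 8, of which 2 are labelled KO. Because the genes are near-identical, how the counting assigned reads to Lyz1 or Lyz2 is uncertain, and the part this plays in the ratio was not tested.

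**Figure D1:**
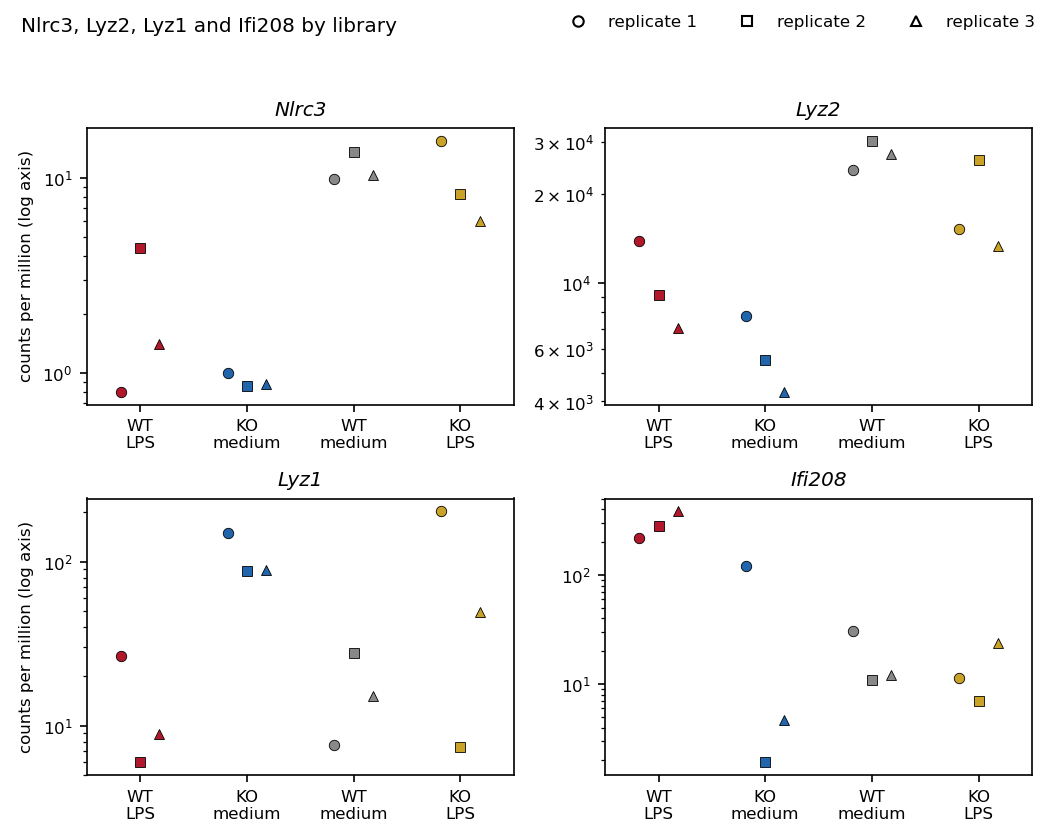
Each point is 1 library's CPM (log axis) of Nlrc3, Lyz2, Lyz1 and Ifi208 in the 4 labelled groups, with replicate 1 as a circle, 2 as a square and 3 as a triangle. Nlrc3 and Lyz2 overlap between WT, LPS and KO, medium; Lyz1 lies higher and Ifi208 lower in all 3 KO, medium libraries, and the Ifi208 values there run from 1.91 to 122 CPM.

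Ifi208, an interferon-inducible member of the PYHIN family of DNA-sensing proteins (ENSMUSG00000066677, chr1:173673675-173698395, plus strand), had the largest fitted fall of that kind; it was chosen after its values were seen. It stood at 217, 282 and 386 CPM labelled WT, LPS and at 122, 1.91 and 4.72 CPM labelled KO, medium. The fall is uneven: replicate 1 labelled KO, medium is nearer to the WT, LPS libraries, and replicates 2 and 3 are lower than any of the other 10 libraries, including those labelled WT, medium (30.6, 11.0 and 12.1 CPM). The log2 fold was -2.51 ± 1.15 (95% interval -5.02 to 0.01; edgeR adjusted p = 0.95). With each of the 6 libraries left out in turn it ran from -6.31 to -1.96. The -6.31 is the fit without replicate 1 labelled KO, medium, with an edgeR adjusted p of 0.0428. That was the only 1 of 12 alternative fits with an adjusted p under 0.05. It leaves out the library that goes against the fall, in a gene chosen for its fall, so it is no support for a difference.

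The neighbours of Ifi208 in the same gene cluster had overlapping groups. Ifi209, which lies next to it (chr1:173630917-173647928, plus strand), stood at 1349.7, 1518 and 1681 CPM labelled WT, LPS and 1351, 959 and 1973 CPM labelled KO, medium (log2 fold 0.12 ± 0.38). Ifi207, on the other side (chr1:173723427-173741747, minus strand), stood at 472, 894 and 546 CPM labelled WT, LPS and 422, 374 and 722 CPM labelled KO, medium (log2 fold -0.08 ± 0.27). Ifi213, Ifi214, Ifi206, Ifi205, Ifi203, Ifi204, Ifi211, Mndal and Aim2 had log2 folds from -0.33 ± 0.46 (Ifi206) to 0.35 ± 0.29 (Aim2), with overlapping groups in each. These genes resemble each other in sequence, so counts within the family are uncertain to the degree that reads could be shared.

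A transcript that the filter kept out of the test showed the same 2 libraries. Gm42031, an unnamed gene model (chr8:85125872-85132289, minus strand; chosen after its values were seen), stood at 13.04 and 21.6 CPM in replicates 2 and 3 labelled KO, medium. In replicate 1 of that group it stood at 0.0553 CPM, and in each of the other 9 libraries at 0.0664 CPM or less, which is at most 1 read. It was called when the filter was removed and when replicate 1 labelled KO, medium was left out. In the second fit it passed the filter through the 2 libraries where it is high, and the library of that group without it was absent. These calls are therefore a description and no support for a difference between the groups.

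At least 2-fold differences without overlap were few. The labelled KO, medium libraries lay wholly above the WT, LPS ones in 261 genes, 1.9% of those tested, and wholly below in 492, 3.57%. Of the 8922 genes that reached 5 CPM in the higher group, 347 did not overlap, and a fitted fold of 2 or more was reached by 10 that were higher and 19 that were lower. None of the 29 passed the test. Besides Lyz1, the higher ones include Serpina3g, a serine protease inhibitor induced by inflammatory signals (99.0, 36.2 and 113 CPM against 128, 136 and 212 CPM; log2 fold 1.08 ± 0.71). Khk, the enzyme that phosphorylates fructose, stood at 7.63, 3.48 and 4.44 against 8.85, 10.6 and 8.02 CPM (log2 fold 1.01 ± 0.43). Besides Ifi208, the lower ones include Vav2 at 4.71, 34.0 and 5.41 against 2.71, 1.84 and 3.17 CPM (log2 fold -2.14 ± 0.76). Gclc, the catalytic subunit of the enzyme that limits glutathione synthesis, stood at 17.9, 34.3 and 20.6 against 6.03, 5.24 and 12.8 CPM (log2 fold -1.35 ± 0.47). In both genes the 3 WT, LPS libraries lie above the 3 KO, medium ones, and in Vav2 replicate 2 labelled WT, LPS is far above the rest. These 4 genes were chosen after their values were seen.

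**Figure D2:**
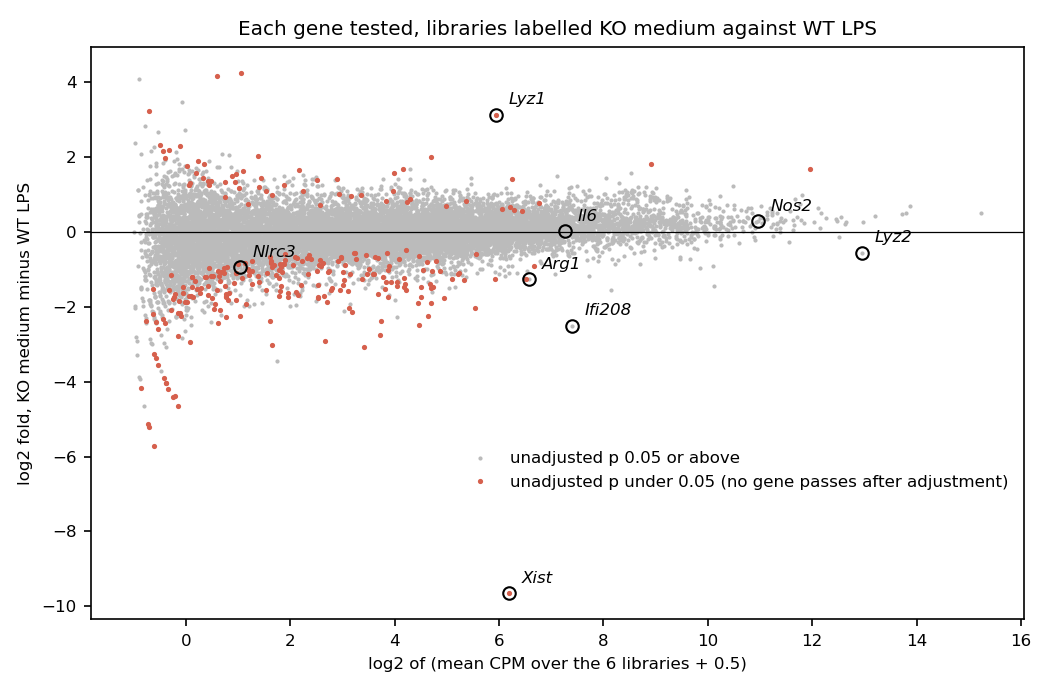
Each point is 1 of the 13773 genes tested: the x axis is log2 of the mean CPM over the 6 libraries plus 0.5, and the y axis is the fitted log2 fold, KO, medium minus WT, LPS. Red points have an unadjusted p under 0.05 (270 genes) and none passes after adjustment; Lyz1, Ifi208 and Xist stand away from the band that holds most genes of their level.

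The LPS-response genes, by which the pair was chosen, were high in both groups and are described without a test. Nos2, the inducible nitric oxide synthase (ENSMUSG00000020826), stood at 2153, 831 and 2704 CPM labelled WT, LPS and 2717, 1148 and 2347 CPM labelled KO, medium, against 5.94, 3.90 and 8.35 CPM labelled WT, medium and 5.43, 1.42 and 0.689 CPM labelled KO, LPS. All 6 libraries of the pair lie above all of the other 6. The library lowest in Nos2 among the 6 is replicate 2 labelled WT, LPS. Il6, a secreted cytokine, stood at 245, 12.3 and 214 CPM against 108, 105 and 237 CPM, with 0.307, 2.37 and 2.44 CPM labelled WT, medium. Il1b stood at 2915, 629.7 and 4005 against 2124, 2659.8 and 3138 CPM, and Tnf at 754, 114 and 528 against 641, 901 and 734 CPM. In Il6, Il1b and Tnf the same replicate 2 is the lowest of the 6, and the other 5 interleave between the labels.

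Acod1, which makes itaconate, stood at 5545, 2313 and 5889 against 4983, 4442 and 6504 CPM. Il10, an anti-inflammatory cytokine, stood at 168, 68.2 and 221 against 181, 98.1 and 261 CPM. Ifnb1, interferon beta, stood at 2.39, 3.05 and 0.851 against 1.72, 1.56 and 2.22 CPM, a level of few reads. The groups overlap in each of the 3 genes. Fitted log2 folds of these 7 genes ran from 0.02 ± 0.86 (Il6) to 0.84 ± 0.79 (Tnf). Without replicate 2 labelled WT, LPS they were -0.54 for Il6, -0.12 for Nos2, -0.28 for Il1b, 0.35 for Tnf, -0.01 for Acod1, -0.01 for Il10 and 0.26 for Ifnb1. Arg1, arginase, which competes with Nos2 for arginine, varied more within the groups, at 47.2, 242 and 135 against 22.9, 16.3 and 109 CPM (log2 fold -1.26 ± 1.34; edgeR adjusted p = 0.95).

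**Figure D3:**
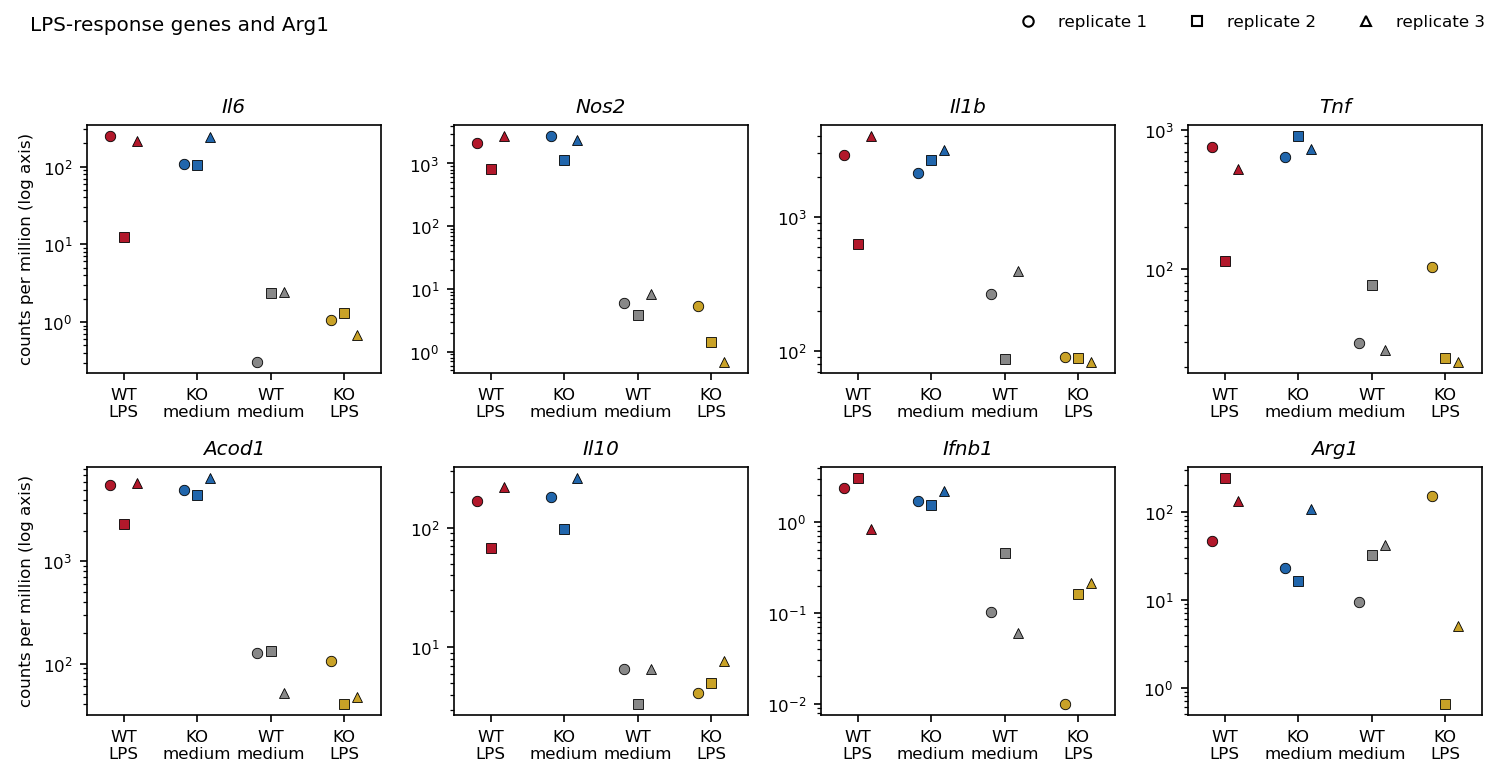
Each point is 1 library's CPM (log axis) of 7 LPS-response genes and Arg1 in the 4 labelled groups; the 1 library at 0 in Ifnb1 is drawn at 0.01. In Il6, Nos2, Il1b, Tnf, Acod1 and Il10 the libraries labelled WT, LPS and KO, medium lie above the other 6, and replicate 2 labelled WT, LPS is the lowest of them.

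Groups of genes were read from 52 lists, together 889 genes tested. Of these, 0 passed in any list (edgeR; 0% of all genes tested passed), and 10 had an unadjusted p under 0.05, against 1.96% of all genes. Over all genes the median log2 fold was -0.02. Members named from the lists in the following paragraphs, beyond the single genes of the naming rule, are extremes of their list and were chosen after their values were seen. In the list of LPS-induced cytokines, chemokines and effectors, the 37 genes tested had a median log2 fold of 0.16, and -0.12 without replicate 2 labelled WT, LPS. That replicate was the lowest of the 6 libraries in 27 of the 37. On TMM-scaled CPM all 6 libraries lay above all 3 labelled WT, medium in 32 of the 37, against 2072 of all genes tested (15%); genes of this kind chose the pair. The 26 genes of LPS feedback and tolerance, such as the NF-κB inhibitors that LPS induces, had a median of 0.23, and -0.12 without that replicate, which was the lowest in 21 of the 26.

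Interferon-stimulated genes were high in both groups. On TMM-scaled CPM all 6 libraries lay above all 3 labelled WT, medium in 47 of 47 genes tested, against 15% of all genes. LPS raises these genes too, and LPS-response genes chose the pair, so this count is a description. Their summed level was 54586, 53544 and 58922 CPM labelled WT, LPS and 52142, 43998 and 72011 CPM labelled KO, medium, against 6507, 5828 and 5165 CPM labelled WT, medium. The median log2 fold between the pair was 0.15, from -0.41 ± 0.30 (Oas2, an RNA-activated antiviral enzyme) to 0.53 ± 0.63 (Isg15, a ubiquitin-like protein). In 23 of the 47 the whole 95% interval lay within 2-fold, against 31.1% of all genes tested. The median was -0.03 without replicate 3 labelled KO, medium and 0.04 without replicate 2 labelled WT, LPS. Of the 6 sums, not TMM-scaled, the highest belongs to replicate 3 labelled KO, medium and the lowest to replicate 2 of that group. On TMM-scaled CPM replicate 2 labelled WT, LPS was instead the lowest in 28 of the 47 genes. On that scale replicate 2 labelled KO, medium was the lowest in 14.

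Sensors upstream of these genes varied mostly between libraries. Of 24 Toll-like receptors, co-receptors and adaptors tested, 12 had a positive and 12 a negative log2 fold, with a median of -0.0018 (-0.23 to 0.10 with 1 of the 6 libraries left out). Tlr4 stood at 24.0, 84.1 and 27.4 against 22.6, 18.7 and 36.1 CPM, and Myd88 at 373, 232 and 367 against 367, 327 and 399 CPM. The DNA sensor Tlr9 had the lowest log2 fold and a wide spread, at 4.78, 132 and 15.4 CPM labelled WT, LPS and 5.75, 1.56 and 35.4 CPM labelled KO, medium (log2 fold -1.50 ± 1.52). Replicate 2 labelled WT, LPS is again apart, here as the highest, and in Tlr4 too. Of 26 genes for NOD-like receptors, inflammasome parts and STING, with a median of 0.04 (-0.21 to 0.12 with 1 library left out), the ends of the range were Nlrp1b at -1.67 ± 0.93 and Pycard, the inflammasome adaptor ASC, at 0.87 ± 0.47. STING itself (listed as Tmem173) stood at 30.9, 35.3 and 32.8 against 34.0, 24.2 and 45.2 CPM (log2 fold 0.28 ± 0.35).

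Of the glycolytic enzymes, named in the study's question, 0 of 19 passed the edgeR test and 0 had an unadjusted p under 0.05. In 0 of the 19 the groups did not overlap. Over all genes tested, 0% passed, 1.96% had such a p, and 1.9% (higher) and 3.57% (lower) did not overlap. Counts of 0 among 19 genes are near these shares. Among the 19 enzymes, 9 had a positive and 10 a negative log2 fold. Their median was -0.0011 (-0.11 to 0.03 with 1 library left out), and the ends were -0.57 ± 0.36 (Pgam1) and 0.81 ± 0.59 (Ldhb). Hk2, the inducible hexokinase that traps glucose in the cell, stood at 109, 184 and 169 CPM labelled WT, LPS and 95.2, 67.1 and 143 CPM labelled KO, medium (log2 fold -0.36, 95% interval -1.01 to 0.28). Pkm, pyruvate kinase, stood at 2548, 3912 and 2318 against 2474, 2705 and 2091 CPM (95% interval of the log2 fold -0.85 to 0.85). Ldha, which makes lactate, stood at 1520.2, 1404 and 1229 against 1413, 1329.6 and 974 CPM (interval -1.16 to 1.31). In all 3 the libraries of the groups interleave, and a 2-fold difference is outside the interval for Pkm only; for Hk2 and Ldha it is not.

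Slc2a1, Pfkfb3 and Hif1a, genes of glucose entry and its control, also had overlapping groups. Slc2a1, the glucose transporter GLUT1, stood at 255, 169.6 and 359.6 against 299.8, 209.7 and 247 CPM (interval -0.94 to 1.22; log2 fold 0.14, and -0.16 without replicate 2 labelled WT, LPS). Pfkfb3, which makes the activator of phosphofructokinase, stood at 769, 968 and 1194 against 806, 407 and 1002 CPM (interval -1.26 to 0.87), with 109, 31.8 and 148 CPM labelled WT, medium. Hif1a stood at 285, 347 and 509 against 245, 163 and 461 CPM (interval -1.26 to 0.86). The lowest of the 6 in Pfkfb3 and Hif1a is replicate 2 labelled KO, medium. The list of glucose and lactate transporters and regulators of glycolysis had a median of -0.22 over 17 genes, -0.11 without replicate 2 labelled WT, LPS and -0.30 to -0.09 over the 6 libraries left out in turn. In 1 of the 17, Pdk3, which inhibits pyruvate dehydrogenase, the KO, medium libraries lay wholly higher (log2 fold 0.46 ± 0.27). The same held for 1.9% of all genes tested. HIF-1 factors with their non-glycolytic targets had a median of -0.20 over 25 genes, -0.36 without that replicate and -0.36 to -0.06 in all. All 5 single genes named here and in the preceding paragraph besides Pkm had an edgeR adjusted p from 0.95 to 0.987. Nnt, a mitochondrial transhydrogenase gene, was not tested and stayed at or below 0.354 CPM in the 6 libraries.

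Among lists with at least 5 genes tested, those for ribosomes and respiration had the most positive medians, and their order followed single libraries. All 48 cytosolic ribosomal protein genes had a positive log2 fold, with a median of 0.91. Groups did not overlap in 0 of the 48 (over all genes tested, 1.9% higher and 3.57% lower). Their summed level was 20122, 7658 and 12929 CPM labelled WT, LPS and 21082, 31954 and 12776 CPM labelled KO, medium. Replicate 2 labelled WT, LPS was the lowest of the 6 in 48 of the 48 genes, and replicate 2 labelled KO, medium the highest in 47. Replicate 1 of each group lay close together, as did replicate 3 of each. The list's median was 0.56 without replicate 2 labelled WT, LPS. It was 0.49 without replicate 2 labelled KO, medium and 1.42 without replicate 1 labelled WT, LPS, the ends of the range over the 6 libraries. The 34 nuclear genes of the respiratory chain were positive in 34 of 34, with a median of 0.59 and 0.37 without replicate 2 labelled WT, LPS, which was the lowest in 29 (0.32 to 0.96 over the 6 libraries). Of 11 genes encoded in the mitochondrion, 10 had a positive log2 fold, with a median of 0.38 (0.16 to 0.67 with 1 library left out). The exception, mt-Co1, stood at 3127, 4287 and 3183 against 2510.4, 729.7 and 4328 CPM, with replicate 2 labelled KO, medium the lowest.

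Gene length moved with these lists. Across the 13773 genes, the log2 fold and gene length had a Spearman correlation of -0.322, given as a description across genes, which are not independent replicates. The median log2 fold was 0.39 in the 1378 shortest genes (57 to 1215 bases, as implied by the deposited FPKM values) and -0.26 in the 1378 longest (9454 bases and above). Ribosomal protein genes in the list had a median length of 1800 bases and respiratory chain genes of 2036, against 4006 for all genes tested. By library, the correlation of length with the deviation from the 6-library mean was -0.269, 0.342 and 0.133 in replicates 1, 2 and 3 labelled WT, LPS and -0.357, -0.338 and 0.280 in those labelled KO, medium. Both signs occur in both groups. The part that length or RNA quality plays in the list medians was not tested.

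**Figure D4:**
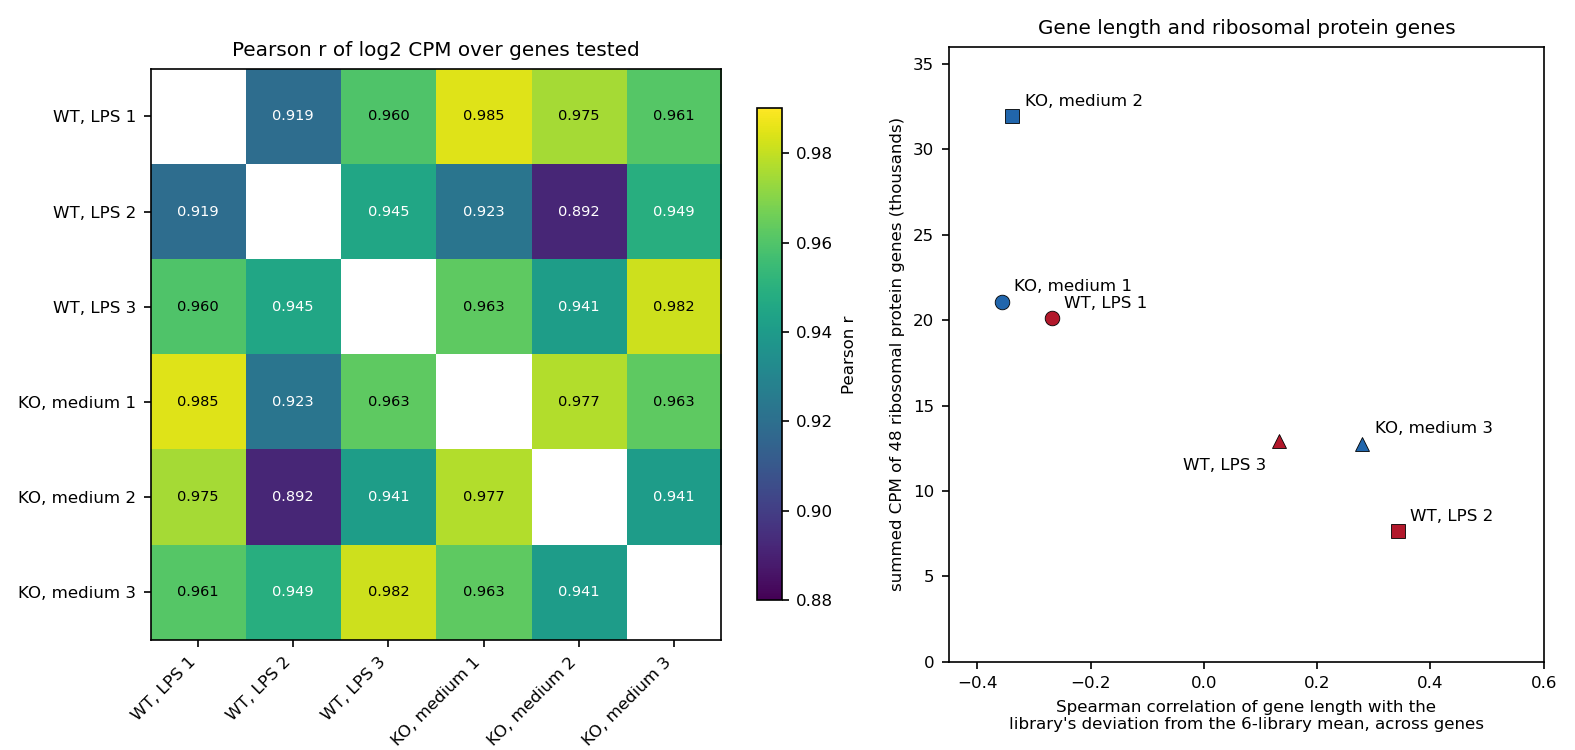
Left, Pearson r of log2 CPM over the 13773 genes tested for each pair of the 6 libraries, with the value in the cell. Right, each point is 1 library: the x axis is the Spearman correlation across genes of gene length with the library's deviation from the 6-library mean, and the y axis is the summed CPM of the 48 ribosomal protein genes divided by 1000; the 3 libraries with a negative x value are replicate 1 of WT, LPS and replicates 1 and 2 of KO, medium.

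Library by library, likeness crossed the labels. The nearest library of replicate 1 labelled WT, LPS, among all 12, was replicate 1 labelled KO, medium (Pearson r of log2 CPM 0.9845 over genes), and the reverse held too. Replicate 3 of each group were likewise each other's nearest (0.9816). Replicate 2 labelled WT, LPS was nearest to replicate 3 labelled KO, medium (0.9491), and replicate 2 labelled KO, medium to replicate 1 of its own group (0.9772). The 3 pairs within WT, LPS had r from 0.919 to 0.960, the 3 within KO, medium from 0.941 to 0.977, and the 9 between the groups from 0.892 to 0.9845. These libraries share no named batch in the labels, and genes in 1 library are not independent. Total counts ran from 14115083 to 20960505 over the 6 libraries, and Fth1, the ferritin heavy chain, was the gene with most reads in each.

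Large gaps between libraries were mostly those of replicate 2 labelled WT, LPS. Among 9958 genes of at least 5 CPM in 1 of the 6 libraries, 154 had a gap of 4-fold or more between neighbours in the order of the 6 values. This scan was added after the data were seen. In 79 of the 154 that replicate was alone at the low end, and in 46 alone at the high end. No gene had its gap between the 3 libraries of 1 label and the 3 of the other. Among those low in that replicate, Il27, a cytokine subunit, stood at 297, 28.8 and 344 CPM labelled WT, LPS and 380.2, 307 and 329 CPM labelled KO, medium, and Ccl4, a chemokine, at 1260.3, 184 and 1526 and 1308, 1464 and 1398 CPM. Csf3, the granulocyte growth factor G-CSF, stood at 34.9, 1.91 and 83.4 and 25.1, 27.3 and 52.3 CPM. Among those high in that replicate was Slc40a1, the iron exporter ferroportin, at 4.11, 61.3 and 11.2 and 3.82, 3.33 and 9.64 CPM, with 237, 17.0 and 203 CPM labelled WT, medium.

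Sex-linked genes also set that replicate apart. Xist, the RNA of the inactive X chromosome (ENSMUSG00000086503), stood at 0.0664, 437 and 0.122 CPM labelled WT, LPS and 0.166, 0 and 0.202 CPM labelled KO, medium. Ddx3y, on the Y chromosome, stood at 19.6, 0 and 27.7 and 13.6, 17.6 and 29.4 CPM. Replicate 2 labelled WT, LPS thus has Xist and no read of Ddx3y, and the other 5 have the reverse. Among the remaining 6 libraries, Xist was at 587, 0.306 and 634 CPM labelled WT, medium and 0.0631, 191 and 95.1 CPM labelled KO, LPS. The fitted Xist log2 fold of -9.65 ± 3.60 (edgeR adjusted p = 0.95) rests on that 1 library, and without it the value was 0.50.

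Other single libraries were apart in fewer genes. Replicate 2 labelled KO, medium was alone at the low end in 14 of the 154, among them Tlr8, an RNA sensor (31.8, 311 and 57.6 CPM labelled WT, LPS and 24.8, 3.54 and 128 CPM labelled KO, medium), and Ms4a4a (75.1, 581 and 229 and 104, 16.1 and 329.8 CPM). In 5 genes replicate 1 labelled WT, LPS and replicates 1 and 2 labelled KO, medium were high together, among them Ctsk, the bone-resorbing protease cathepsin K (276, 28.1 and 24.1 and 174, 136 and 34.5 CPM), and Ccl17, a chemokine (5.18, 0.0477 and 0.243 and 3.60, 5.81 and 0.404 CPM). In 3 genes the complementary libraries were high, among them Syne1, a very long nuclear-envelope gene (2.59, 38.6 and 19.9 and 3.10, 1.56 and 21.7 CPM). Slamf1, a receptor of activated immune cells, was high in replicate 3 labelled WT, LPS alone (37.2, 12.7 and 334 and 55.4, 24.4 and 67.0 CPM). These patterns again run across the labels.

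The cells carried macrophage markers in all 6 libraries. Csf1r, the M-CSF receptor, stood at 1009, 1393 and 852 CPM labelled WT, LPS and 885, 759 and 1049.8 CPM labelled KO, medium, and Cd68 at 901, 936 and 706 and 1041, 740.3 and 851 CPM. Adgre1 (F4/80) was highest in replicate 2 labelled WT, LPS, at 411, 1771 and 623 and 356, 359 and 707 CPM. The 10 macrophage markers had a median log2 fold of -0.002 (-0.09 to 0.06 with 1 library left out). In bulk RNA, fewer cells of a type and less RNA per cell cannot be told apart.

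Markers of other cells were low or followed single libraries. The 12 T and NK cell markers summed to 5.91, 39.2 and 59.8 CPM labelled WT, LPS and 10.1, 5.74 and 58.9 CPM labelled KO, medium. Cd4 and Gzmb make up most of the 3 highest sums. Cd3e, a defining T cell marker, stood at 0.531, 0.429 and 0.608 and 0.221, 0 and 0 CPM, at 0 in replicates 2 and 3 labelled KO, medium. Of the 11 tested, 10 had a negative log2 fold, with a median of -1.12 and -1.82 to -0.88 with 1 library left out. The 15 stromal and fibroblast markers summed to 63.8, 296 and 480 and 85.0, 73.5 and 251 CPM. Col1a1, the collagen of connective tissue, stood at 6.10, 66.6 and 89.02 and 10.2, 8.71 and 30.7 CPM, and replicate 3 labelled WT, LPS was the highest of the 6 in all 14 stromal genes tested. The median of those 14 was -0.68, -0.006 without replicate 3 labelled WT, LPS and -1.29 without replicate 3 labelled KO, medium. The 15 neutrophil markers summed to 1698, 2352 and 6163 and 1960.3, 1978 and 3844 CPM, with a median of -0.09 over 14 tested, and of 0.88 without replicate 3 labelled WT, LPS. No marker of these 3 lists was at 0 in all 6 libraries, and their part in the other results was not tested.

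**Figure D5:**
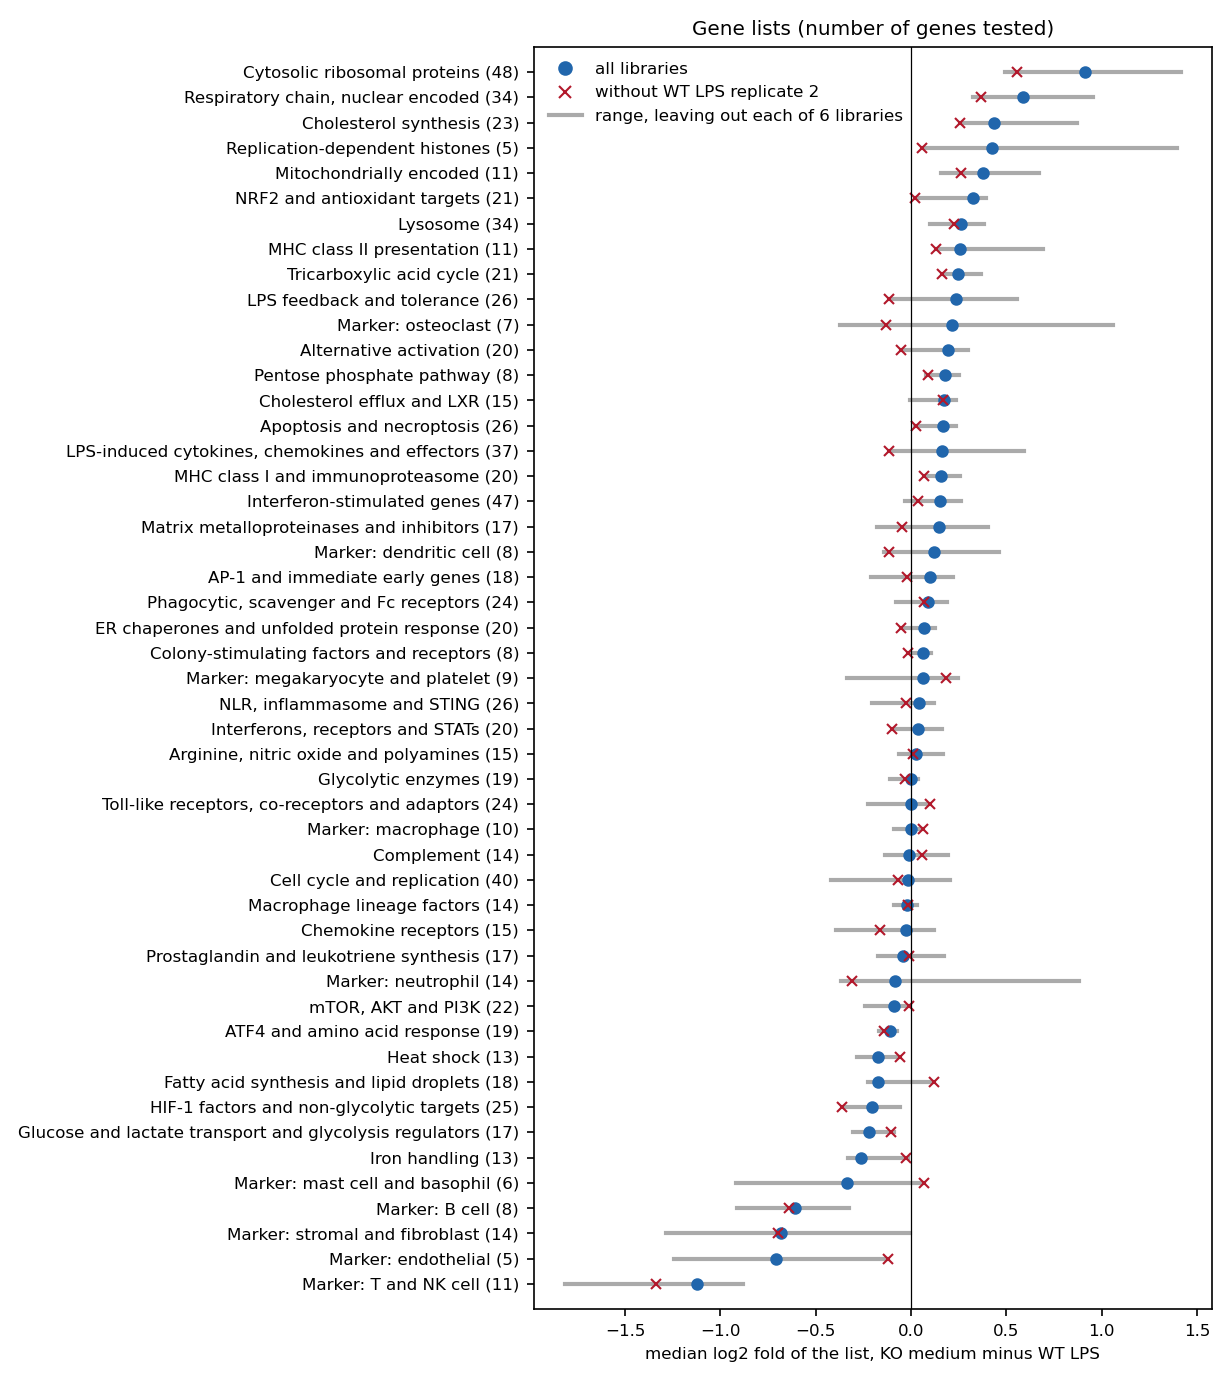
Each row is 1 of 49 gene lists, with the number of genes tested in brackets; the x axis is the list's median log2 fold, KO, medium minus WT, LPS. Blue circles use all libraries, red crosses leave out replicate 2 of WT, LPS, and grey bars give the range when each of the 6 libraries is left out in turn; the lists of sex-linked genes, of erythroid markers (3 genes tested) and of the single genes are not drawn. No gene passed the test in any list, and ribosomal protein genes (0.91) and T and NK cell markers (-1.12) are the ends of the lists drawn.

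Other functions lay between those ends. The 34 lysosomal genes had a median of 0.26 (0.10 to 0.38 with 1 library left out), positive in 28, and in 16 of the 34 the whole interval lay within 2-fold. The 23 cholesterol synthesis genes had a median of 0.44, positive in 21; Fdft1, squalene synthase, stood at 17.2, 8.30 and 7.60 against 16.9, 24.8 and 17.5 CPM. Without replicate 2 labelled WT, LPS that median was 0.26, and without replicate 1 of that group 0.87. The 11 MHC class II presentation genes, all positive, had a median of 0.26 (0.13 to 0.69 with 1 library left out, the lowest without replicate 2 and the highest without replicate 1 labelled WT, LPS). The 20 genes of MHC class I and the immunoproteasome had a median of 0.16, and 0.07 without replicate 2 labelled WT, LPS. The 40 genes of cell cycle and replication had a median of -0.02. Without replicate 3 labelled KO, medium the cell cycle median was -0.42, and without replicate 3 labelled WT, LPS 0.20. Irf8, a transcription factor of macrophage and dendritic cell identity, lay wholly higher in KO, medium, as did 1.9% of all genes tested. It stood at 248, 207 and 312 CPM labelled WT, LPS and 321, 369 and 412 CPM labelled KO, medium (log2 fold 0.73 ± 0.34, edgeR adjusted p = 0.95).

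Genes beside the targeted loci were read separately. Within 5 Mb on each side of Nlrc3, 42 genes were tested, 0 passed (edgeR; 1 at an unadjusted p under 0.05), and their median log2 fold was -0.0046. Within 5 Mb on each side of Lyz2, 39 genes were tested, 0 passed, and the median was -0.05, with Lyz1 among the 2 at an unadjusted p under 0.05. The groups did not overlap in 5 of the 42 genes and in 3 of the 39. Over all genes tested, 0% passed and 1.96% had an unadjusted edgeR p under 0.05. Groups did not overlap in 1.9% of all genes (higher in KO, medium) and 3.57% (lower).

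The libraries labelled KO, LPS and WT, medium make the other pair that differs in both labels, with the treatments exchanged, and share no library with the first. There edgeR called 0 of 13773 genes (0%), 1135 reached an unadjusted p under 0.05 (8.24%), the smallest adjusted p was 0.552, and DESeq2 called 41. The difference between the contrasts, tested in the same fit, also gave 0 (0%), with 553 at an unadjusted p under 0.05 and 0 by DESeq2. Lyz1 had a log2 fold of 2.39 ± 1.00 there and Ifi208 -0.24 ± 1.10. Lyz1 stood at 204, 7.37 and 49.3 CPM labelled KO, LPS and at 7.58, 27.7 and 15.2 CPM labelled WT, medium. The groups overlap in it, and replicate 1 labelled KO, LPS is far above the rest. The difference between the contrasts had an edgeR adjusted p of 0.933 for Lyz1 and 0.896 for Ifi208.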

How the data were processed

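RNA of 12 macrophage cultures was sequenced; TruSeq and KAPA stranded kits are both named per the labels' protocols. The authors deposited read counts per gene and, in a separate table, FPKM values (counts per length and library size). The genome build was mm10, as the submitters' processing notes list it, with the aligner, the counter and its use of strand not given in the sources used here. No column was without a sample (0).

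Counts were tested as deposited with edgeR 4.0.16 (R 4.3.3), by TMM factors, filterByExpr, 1 term per labelled group over all 12 libraries, quasi-likelihood and Benjamini-Hochberg adjustment at 0.05; DESeq2 1.42.0 was an alternative. Overlap between groups was read on TMM-scaled CPM, and levels are CPM of the total. FPKM served for gene lengths only. Of the identifiers, 54409 matched GENCODE M21 for coordinates and 37 did not; 93 symbols have more than 1 identifier. Promoters are RefSeq's. The script was tested on simulated counts. The members and lists were chosen with earlier results of these data known. The naming rule took Nlrc3, Lyz2, called genes of at least 5 CPM without overlap, and 19 single genes; as no gene was called, other genes named were chosen after their values were seen. The labels do not say that replicate numbers mark shared animals or batches. Whether the replicate numbers pair the libraries was looked at but not settled. Column names carry other numbers, some of which recur between libraries labelled WT, medium and WT, LPS. What those mark is not given, and the main fit took all 12 libraries as independent.

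Alternatives were another scaling, no filter, DESeq2, the 6 libraries alone, the replicate block and leaving out each library. Library totals of 14115083 to 20960505 reads limit genes near 3 counts.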

Additional observations from a re-analysis of the deposited data

How the results depend on the processing

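Between the libraries labelled WT, LPS and KO, medium, 0 genes were called under every scaling, under DESeq2 and with only the 6 libraries, and 3 with no filter on low counts (Lyz1, Xist and Gm42031). Leaving out 1 library gave 0 to 2 calls, the 2 (Ifi208 and Gm42031) without replicate 1 labelled KO, medium. In both genes that library is unlike the other 2 of its group, so these 2 calls are a description. For the libraries labelled KO, LPS against WT, medium the count of 0 became 41 under DESeq2, 99 with no filter, and 0 to 245 when 1 library was left out, the 245 without replicate 1 labelled KO, LPS. The difference between the contrasts had 1 call with no filter (Marco). The cause was not tested. Scaling by library size alone moved the median log2 fold of all genes from -0.02 to -0.26. With the replicate number as a block the count of calls was 0 in each of the 3 comparisons. Same-numbered libraries had deviations from their group means that correlated with r of 0.272, -0.363 and 0.265. Each mean is of 3 libraries and includes the library compared, so these values cannot settle whether the numbers pair the libraries. Ifi208 had a log2 fold of -3.73 with the block. The single genes followed here were 19, namely the 18 tested of the naming rule and Ifi208, added after its values were seen. In the alternatives run, 12 of these 19 and 32 of 51 list medians changed sign at least once, and 7 and 19 did not. The fit scaled by library size alone, which moved the median of all genes, is among these alternatives. Some lists changed sign only outside the fits that leave out a library, such as MHC class I and the immunoproteasome (0.07 to 0.26 in those fits). The erythroid list gave no value with only the 6 libraries. With 3 libraries a group and a median SE of 0.44, and with 1 library far from the rest of its group, small differences were not detectable. Large ones could go uncalled too: Lyz1, at a log2 fold of 3.12 without overlap, had an edgeR adjusted p of 0.95.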
